A study of Mus musculus with 5 samples.

Results

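The MHC class II antigen presentation genes examined here were Cd74, H2-Aa, H2-Ab1, H2-Eb1, H2-DMa, H2-DMb1 and Ciita. They were taken by gene symbol with every probe the arrays carry for them, which gave 7 genes and 13 probes out of 19057 named genes and 45281 probes. Of these, 6 genes and 10 probes passed the detection filter, which asked that 2 or more of the 5 arrays give a detection p under 0.05. Ciita did not pass it. RNA came from 5 end-stage mouse medulloblastomas, 1 Illumina bead array per tumour. All 5 tumours came from mice carrying SmoA2, an activated form of the hedgehog signal transducer Smoothened. The tumours comprised 2 from MyoD+/-;SmoA2 mice, which have a single intact copy of the muscle regulator gene Myod1, and 3 from MyoD+/+;SmoA2 mice, which have both. The labels give neither the promoter that drives SmoA2 nor the strain, age or sex of the mice. Nor do they tell if the tumours are from separate mice, and p-values hence describe only the spread between these samples.

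MHC class II molecules display peptides from ingested protein to CD4 T cells. An alpha and a beta chain (H2-Aa with H2-Ab1 in the mouse I-A molecule, H2-Eb1 as the beta chain of I-E) assemble on the invariant chain Cd74, which blocks the peptide groove until lysosomal proteases cut it down. The heterodimer of H2-DMa and H2-DMb1 then exchanges the last fragment of Cd74 for a peptide. Transcription of all these genes depends on the coactivator Ciita, which has no DNA contact of its own and docks on factors bound to the X and Y boxes of class II promoters. In brain tissue the system is known mainly from activated microglia, macrophages and dendritic cells.

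The promoters of 3 class II genes are shown because the X and Y boxes are the elements through which Ciita acts. They come from RefSeq (GRCm38.p6) and cover positions -130 to -11 from the start site, 5′ to 3′ on the strand of the gene. Capitals mark letters found by search on both strands: the Y box CTGATTGG, its core ATTGG (which lies within it and reads CCAAT on the opposite strand), and the X box written as AGNAACNG. H2-Aa lies at chr17:34287834-34287953 (minus strand), H2-Eb1 at chr17:34305737-34305856 (plus strand) and H2-DMb1 at chr17:34153061-34153180 (plus strand).
H2-Aa: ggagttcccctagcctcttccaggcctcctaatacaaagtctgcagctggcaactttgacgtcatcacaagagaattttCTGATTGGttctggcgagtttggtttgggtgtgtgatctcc
H2-Eb1: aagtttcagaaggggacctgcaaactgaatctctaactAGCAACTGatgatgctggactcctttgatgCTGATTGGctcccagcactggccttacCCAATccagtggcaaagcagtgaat
H2-DMb1: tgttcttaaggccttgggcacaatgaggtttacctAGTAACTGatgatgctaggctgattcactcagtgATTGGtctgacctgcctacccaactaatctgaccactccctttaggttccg

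The full Y box stood at positions -51 to -44 in H2-Aa and -62 to -55 in H2-Eb1, and its core at -61 to -57 in H2-DMb1. The X box letters began 33 bases before the Y box core in H2-Eb1 and 34 bases before it in H2-DMb1. Among all 32851 promoter windows of the same length (300 bases), 4.1% held the Y box, 37.4% its core and 17.4% the X box letters. Only 0.664% held X box letters 15 to 60 bases before a Y box core on the same strand. The H2-Aa window did not hold the X box in these letters, which says nothing about the factor. H2-DMa had 2 RefSeq windows, of which the second held only a Y box core (-198 to -194) and the first none of the motifs. The table of promoters held no window for H2-Ab1 or Ciita, and that of Cd74 is not shown.

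The median signal of the 45281 probes lay between 133.6 and 148.1 on the linear scale, and 37.0% to 39.9% of probes were detected per array. Myod1 was above background in all 5 tumours, at 6.31 and 6.67 in MyoD+/- tumours against 7.25, 6.38 and 7.08 in MyoD+/+ tumours (log2). The groups overlapped (difference -0.41 ± 0.28, SE; limma adjusted p = 0.957). Which part of Myod1 its probe reads was not given here. Of 13 genes of granule neuron precursors and hedgehog-driven medulloblastoma, 9 were detected on all 5 arrays, among them Zic1, Barhl1, Neurod1, Gli2 and Ptch1. The other 4 (Pax6, Atoh1, Gli1 and Mycn) were detected on 0 arrays. Xist, which coats the inactive X, was high in tumour 1 of either genotype (11.06 in MyoD+/-, 10.58 in MyoD+/+) and between 4.57 and 4.64 elsewhere.

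Class II transcripts were present in every tumour of both genotypes, and no class II gene passed the test for a genotype difference. Among the 6 genes tested, 5 had a positive log2 difference (MyoD+/- minus MyoD+/+) and 1 a negative one, with a median of 0.45, against a median of -0.0027 over all 10474 genes tested. The number past an adjusted p of 0.05 in limma was 0 of 6, against 0% of all genes. At an unadjusted p under 0.05 there was 1 of 6 higher (H2-Ab1), against 2.49% of all genes, and 0 of 6 lower, against 2.77%. Both MyoD+/- tumours lay above all 3 MyoD+/+ tumours in 1 of 6 genes, against 10% of all genes. This count rested on the main probes: with the mean of a gene's probes it was 3 of 6 (Cd74, H2-Ab1 and H2-DMa), against 10.5% of all genes. Neither H2-DMa probe separated the groups on its own. The dimmer of the 2 was above background in both MyoD+/- tumours and in 1 of 3 MyoD+/+ tumours. It thus needed the group where it is higher to pass the filter, and the separation of H2-DMa is not a finding. Without background correction the median over the 6 genes was 0.18, on a scale where standard errors were smaller too (0.15 for Cd74, against 0.24). It was 0.19 without MyoD+/- tumour 2. Without that tumour the difference was 0.27 for Cd74, 0.41 for H2-Ab1 and 0.11 for H2-Eb1. In bulk tumour RNA, a different number of expressing cells and a different amount of RNA per cell cannot be told apart.

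**Figure D1:**
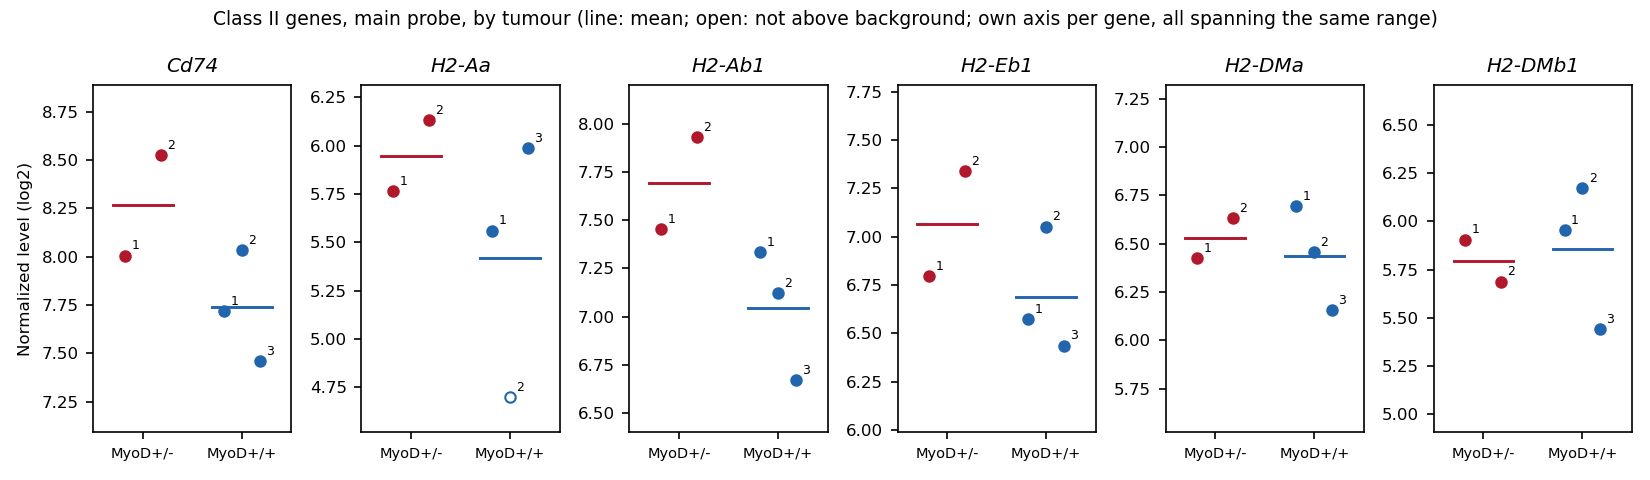
Normalized log2 level of the main probe of each class II gene that passed the filter, by tumour, with MyoD+/- left of MyoD+/+. Numbers beside points are tumour numbers, lines are group means, and the open point (H2-Aa in MyoD+/+ tumour 2) was not above background. Levels overlap between genotypes in every panel but that of H2-Ab1.

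The invariant chain gene Cd74 was read by 3 probes. On its main probe (ILMN_3089584) the level was 8.01 and 8.52 in MyoD+/- tumours 1 and 2, against 7.72, 8.04 and 7.46 in MyoD+/+ tumours 1 to 3 (log2). MyoD+/- tumour 2 was the highest of the 5 and MyoD+/+ tumour 3 the lowest, while MyoD+/+ tumour 2 lay just above MyoD+/- tumour 1. The difference was 0.53 ± 0.24 (SE, n = 2 and 3), a fold of 1.44, with a 95% interval from -0.042 to 1.10 (limma adjusted p = 0.945).

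A second Cd74 probe (ILMN_1221817) stood at 7.97 and 8.46 in MyoD+/- tumours, against 7.49, 7.51 and 6.85 in MyoD+/+ tumours. Here the groups did not overlap. The difference was 0.93 ± 0.27 (SE), a fold of 1.90, with a 95% interval from 0.31 to 1.55 and an unadjusted p of 0.00886 in limma across all probes (adjusted p = 0.947). On the linear scale before any correction, the main probe read 390.3 and 520.8 in MyoD+/- tumours against 338.5, 312.1 and 309.6 in MyoD+/+ tumours. The second probe read 383.8 and 502.5 in MyoD+/- tumours against 307.2, 251.5 and 246.1 in MyoD+/+ tumours. On these uncorrected signals neither probe overlapped between genotypes, so the overlap on the main probe came with the normalization. That step raised MyoD+/+ tumour 2, the array of lowest median signal (133.6).

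The third Cd74 probe (ILMN_1247832) was near background, with signals of 137.9 and 158.1 in MyoD+/- tumours against 145.1, 134.7 and 138.2 in MyoD+/+ tumours. It was detected in MyoD+/- tumour 2 alone and did not pass the filter. The platform annotation assigns it to the same Cd74 transcript as the second probe, and the main probe to another transcript of the gene. The log2 ratio of the second probe to the main probe was -0.039 and -0.067 in MyoD+/- tumours, against -0.23, -0.53 and -0.61 in MyoD+/+ tumours. The ratio did not overlap between genotypes, yet 2 tumours against 3 cannot give an exact two-sided permutation p below 0.2, which is the value obtained (0.5 adjusted over the 5 probe pairs compared).

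**Figure D2:**
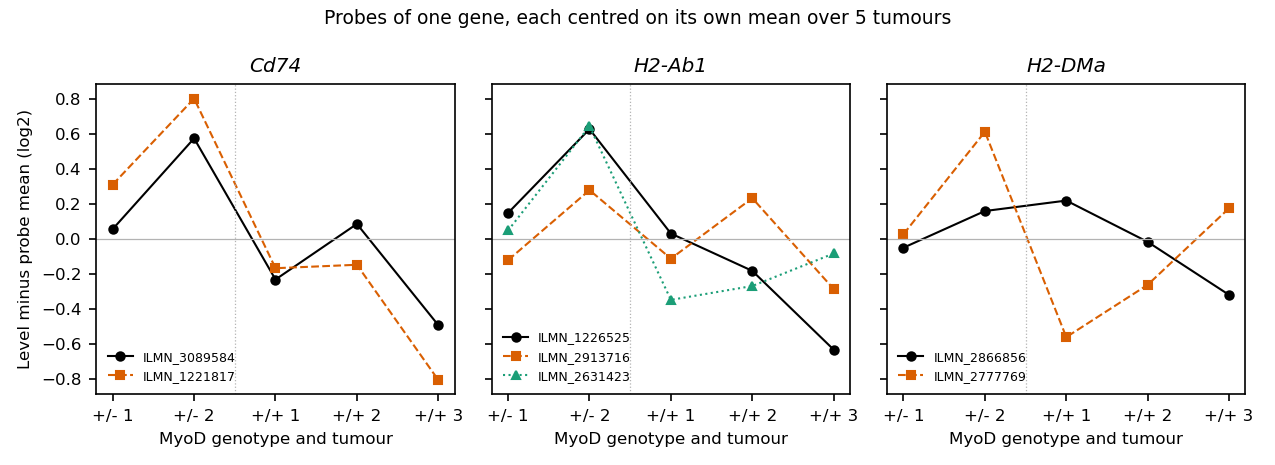
Log2 level of each probe minus its own mean over the 5 tumours, for the class II genes with more than 1 probe past the filter, with MyoD+/- tumours left of the dotted line and MyoD+/+ tumours right of it. The Cd74 probes keep nearly the same order of tumours, whereas those of H2-Ab1 and H2-DMa part in MyoD+/+ tumours.

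H2-Ab1, the beta chain of I-A, was detected on all 5 arrays by each of its 3 probes. Its main probe (ILMN_1226525) stood at 7.45 and 7.93 in MyoD+/- tumours, against 7.34, 7.12 and 6.67 in MyoD+/+ tumours. Every MyoD+/- value lay above every MyoD+/+ value, though MyoD+/- tumour 1 exceeded MyoD+/+ tumour 1 by only 0.12. The difference was 0.65 ± 0.25 (SE), a fold of 1.57, with a 95% interval from 0.056 to 1.24 (limma unadjusted p = 0.036, adjusted p = 0.916). A second probe (ILMN_2631423) stood at 6.91 and 7.50 in MyoD+/- tumours, against 6.51, 6.59 and 6.77 in MyoD+/+ tumours. It also separated the genotypes, at 0.58 ± 0.23 (limma adjusted p = 0.947). The third (ILMN_2913716) stood at 6.83 and 7.23 in MyoD+/- tumours, against 6.84, 7.18 and 6.67 in MyoD+/+ tumours. On that probe the groups overlapped and the difference was 0.13 ± 0.23, with an interval from -0.39 to 0.66. All 3 probes are annotated to a single RefSeq transcript.

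The ratio between the third H2-Ab1 probe and the main probe was -0.62 and -0.70 in MyoD+/- tumours, against -0.50, 0.062 and -0.0064 in MyoD+/+ tumours (log2). It did not overlap between genotypes, and its exact permutation p was again the smallest possible, 0.2. In the other H2-Ab1 probe pairs, and in the H2-DMa pair, these ratios overlapped.

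H2-Aa, the alpha chain that pairs with H2-Ab1, has a single probe close to background. Its signals were 176.4 and 195.8 in MyoD+/- tumours, against 169.1, 129.1 and 189.7 in MyoD+/+ tumours. The normalized level was 5.76 and 6.13 in MyoD+/- tumours, against 5.56, 4.70 and 5.99 in MyoD+/+ tumours, with MyoD+/+ tumour 2 not above background. The difference of 0.53 ± 0.36 (SE; limma adjusted p = 0.957) had an interval from -0.32 to 1.38, and without MyoD+/+ tumour 2 it was 0.17. The spread of H2-Aa within the MyoD+/+ group (1.29 between highest and lowest) exceeded that of 97.0% of all genes tested.

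H2-Eb1, the beta chain of I-E, was detected on all arrays. It stood at 6.80 and 7.34 in MyoD+/- tumours, against 6.57, 7.05 and 6.44 in MyoD+/+ tumours. As with Cd74, MyoD+/+ tumour 2 lay above MyoD+/- tumour 1, so the groups overlapped. The difference was 0.38 ± 0.26 (SE), a fold of 1.30 (limma adjusted p = 0.957).

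The peptide exchange chaperone genes showed smaller differences on their main probes. H2-DMa stood at 6.42 and 6.63 in MyoD+/- tumours, against 6.69, 6.46 and 6.15 in MyoD+/+ tumours, a difference of 0.094 ± 0.21 (limma adjusted p = 0.987). Its partner H2-DMb1 stood at 5.90 and 5.69 in MyoD+/- tumours, against 5.96, 6.17 and 5.44 in MyoD+/+ tumours, a difference of -0.060 ± 0.24 (adjusted p = 0.992). The interval ran from -0.40 to 0.58 for H2-DMa and from -0.63 to 0.51 for H2-DMb1, so these data allow a difference of the size seen in Cd74 for H2-DMa and nearly so for H2-DMb1. Both signs depended on the settings, and that of H2-DMb1 turned positive with median scaling (0.028, where the median of all genes stood at 0.14).

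A second, dimmer H2-DMa probe (ILMN_2777769) stood at 5.49 and 6.07 in MyoD+/- tumours, against 4.90, 5.20 and 5.63 in MyoD+/+ tumours. It was above background in both MyoD+/- tumours and in 1 of the 3 MyoD+/+ tumours. Its difference was 0.53 ± 0.28 (SE; limma adjusted p = 0.963), and the groups overlapped through MyoD+/+ tumour 3. The main probe of H2-DMa had its lowest value in that same tumour.

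Ciita, the coactivator of the whole gene set, was not above background on any array by either of its 2 probes. Signals of the brighter probe were 137.1 and 140.3 in MyoD+/- tumours, against 141.5, 126.0 and 134.0 in MyoD+/+ tumours, and the detection p ranged from 0.204 to 0.625. No fold is given for it. Detection rests also on the probe, so these arrays leave the presence of Ciita transcripts undecided.

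**Figure D3:**
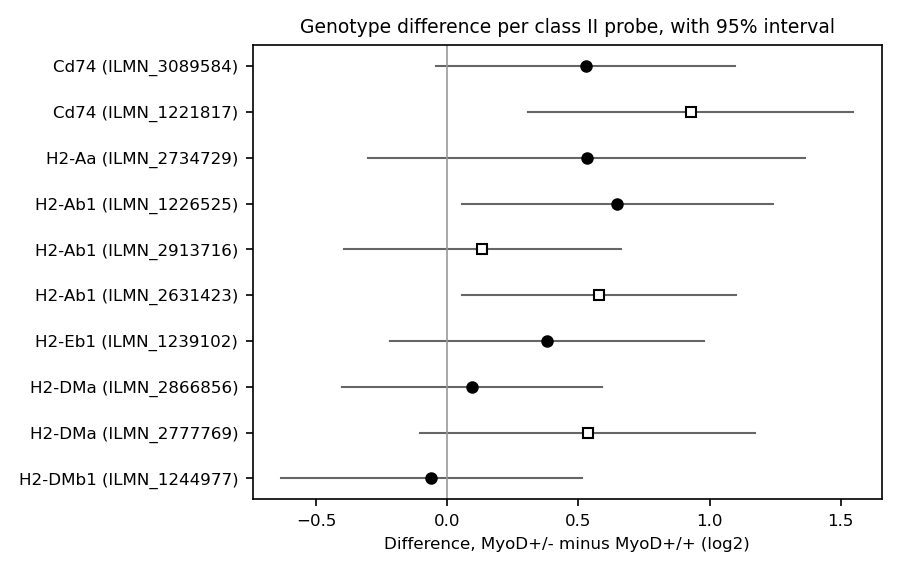
Difference in log2 level (MyoD+/- minus MyoD+/+) with its 95% interval from limma for each class II probe past the filter. Filled circles are main probes and open squares the other probes of the same gene. Of the 10 probes, 9 have a positive difference (49.6% of all genes tested do, by main probe). The intervals are not adjusted for the number of probes. They lie above 0 for 1 probe of Cd74 and 2 of H2-Ab1. The share of all probes with such an interval was not counted. By main probe, 2.49% of all genes tested had an unadjusted p under 0.05 in limma with MyoD+/- higher, which is the same criterion.

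Read probe by probe, the groups did not overlap, with MyoD+/- higher, in 3 of 10 class II probes, against 10.6% of all 18675 probes that passed. In the fit of every probe 0 of 10 had an adjusted p under 0.05, against 0% of all probes. These probes are not independent, since they share arrays and in part genes.

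The tumours differed within a genotype about as much as between genotypes. MyoD+/- tumour 2 was the highest of the 5 in 8 of 10 class II probes and 4 of 6 genes, while it was the highest in 1681 of all 10474 genes tested. MyoD+/+ tumour 3 was the lowest in 7 of 10 probes and 5 of 6 genes, against 22.3% of all genes. Among genes, the exceptions were H2-DMa and H2-DMb1 at the top (MyoD+/+ tumours 1 and 2) and H2-Aa at the bottom (MyoD+/+ tumour 2). Probes ILMN_2631423 of H2-Ab1 and ILMN_2777769 of H2-DMa were also exceptions at the bottom, both lowest in MyoD+/+ tumour 1. Between the 2 MyoD+/- tumours, tumour 2 exceeded tumour 1 by 0.52 in Cd74, 0.48 in H2-Ab1, 0.54 in H2-Eb1, 0.37 in H2-Aa and 0.21 in H2-DMa. In H2-DMb1 the same comparison gave -0.22. The median of these was 0.42, against -0.023 over all genes. Among MyoD+/+ tumours the median range of the 6 genes was 0.64, against 0.40 over all genes.

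The likeness of genes across tumours was measured as the root mean square difference of centred log2 levels over the 5 tumours, where 0 is an identical profile. The number of tumours is too small for correlations, and the measure is a description without a test. Of 10473 other genes, the nearest to Cd74 were Pes1 (0.057), Chp1 (0.069), Rad9a (0.090), H2-Eb1 (0.090) and 2610035D17Rik (0.10). H2-Ab1 ranked 66 at 0.19, H2-DMa 919 at 0.29, H2-DMb1 3878 at 0.38 and H2-Aa 9643 at 0.60. Thus H2-Eb1 was the only class II gene among the 5 nearest to Cd74, and H2-Aa lay farther from Cd74 than 92.1% of genes. The nearest to H2-Ab1 were Tspyl5 (0.066), Slc5a7 (0.11), Jakmip2 (0.14), Cox20 (0.14) and Myb (0.14). Myb stood at 4.97, 5.03 and 4.64 in MyoD+/+ tumours, under the lowest detected levels of those arrays (5.175, 5.34 and 5.24). It thus passed the filter only through the group where it is higher, and its place here is not a finding. Cd74 ranked 33 in that list, H2-Eb1 256, H2-DMa 469, H2-DMb1 4183 and H2-Aa 8360. H2-Aa, whose value in MyoD+/+ tumour 2 was below detection, was far from both.

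In the mouse genome the H2 members lie in a single stretch of chromosome 17 that also holds class I processing genes, while Cd74 and Ciita lie on other chromosomes. Between H2-DMa and H2-Eb1, 9 genes were tested in the order H2-DMa, H2-DMb2, H2-DMb1, Psmb9, Psmb8, Tap2, H2-Ab1, H2-Aa and H2-Eb1. The 4 that are not members comprise a further DM beta chain (H2-DMb2), the immunoproteasome subunits Psmb9 and Psmb8, and the peptide transporter Tap2. Their differences were 0.21 ± 0.25, 0.27 ± 0.32, -0.046 ± 0.22 and -0.093 ± 0.18 (SE), with a median of 0.082, and 0 had an unadjusted p under 0.05. The 5 members in the stretch had a median of 0.38, with H2-Ab1, H2-Aa and H2-Eb1 at 0.65, 0.53 and 0.38. H2-DMa (0.094) and H2-DMb1 (-0.060) lay within the range of the 4 non-members. Whether members and non-members differ was not tested.

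The rest of the class II pathway was described through gene lists, in which 0 genes passed an adjusted p of 0.05. Of 6 other class II chains and chaperones, 2 were tested, H2-DMb2 and H2-Eb2 (0.030 ± 0.23). H2-Ea, H2-Oa and H2-Ob were detected on 0 arrays. H2-Ea encodes the alpha chain of I-E, which several mouse haplotypes do not transcribe, and H2-Oa and H2-Ob encode an inhibitor of the DM chaperone.

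Of 11 genes of peptide processing and surface turnover, 10 were tested, 6 with a positive and 4 with a negative difference (median 0.12). Sppl2a, the membrane protease that clears the last membrane stub of Cd74, differed by 0.38 ± 0.19. It stood at 6.19 and 6.14 in MyoD+/- tumours, against 5.81, 5.99 and 5.54 in MyoD+/+ tumours, without overlap. Marchf1, the ubiquitin ligase that removes class II from the cell surface, stood at 5.21 and 5.69 in MyoD+/- tumours, against 5.06, 5.20 and 5.09 in MyoD+/+ tumours. It was above background in both MyoD+/- tumours and in 0 of 3 MyoD+/+ tumours, so it passed the filter only through the group where it is higher, and its separation is not a finding. Cystatin C (Cst3), an inhibitor of cysteine proteases, stood at 11.59 and 12.05 in MyoD+/- tumours, against 12.14, 12.19 and 12.26 in MyoD+/+ tumours (-0.38 ± 0.19). The lysosomal protease Ctsb differed by 0.17 ± 0.19. None of these had an unadjusted p under 0.05.

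Of 18 class II promoter factors and regulators of Ciita, 11 were tested, 6 with a positive and 5 with a negative difference (median 0.059). Ifngr1, a chain of the interferon gamma receptor, stood at 6.97 and 6.64 in MyoD+/- tumours, against 7.21, 7.29 and 7.23 in MyoD+/+ tumours. The groups did not overlap, and the difference was -0.44 ± 0.18 (limma unadjusted p = 0.0385, adjusted p = 0.926). Ifngr1 was the only gene of the list with an unadjusted p under 0.05 in limma (1 of 11). Over all genes, 2.77% were lower and 2.49% higher at that threshold. How many of all genes lay lower without overlap was not counted. Creb1, which binds the X2 part of the class II promoter, differed by -0.44 ± 0.21, and the Y box factor subunits Nfyc and Nfyb by 0.43 ± 0.24 and 0.059 ± 0.17. Interferon gamma itself (Ifng), the X box factor Rfx5, Irf4 and Socs1 were detected on 0 arrays. All 6 genes listed for co-signalling to T cells, stimulatory or inhibitory, were tested, with a median difference of -0.046. Cd80 (-0.21 ± 0.20), Icosl (-0.11 ± 0.17) and Cd86 (0.066 ± 0.16) had the smallest p among them, and Icam1 and Cd274 differed by -0.061 ± 0.28 and 0.040 ± 0.26.

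MHC class I presentation, which shows peptides made inside the cell, had 12 of 16 genes tested, 5 with a positive and 7 with a negative difference (median -0.070, against 0.45 for class II). The peptide loading chaperone tapasin (Tapbp) differed by -0.44 ± 0.22, H2-T23 by -0.41 ± 0.22 and H2-Q7 by -0.32 ± 0.27. The shared light chain B2m and the proteasome activator Psme1 differed by 0.11 ± 0.23 and 0.0079 ± 0.18. Whether class I and class II differ from each other was not tested.

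**Figure D4:**
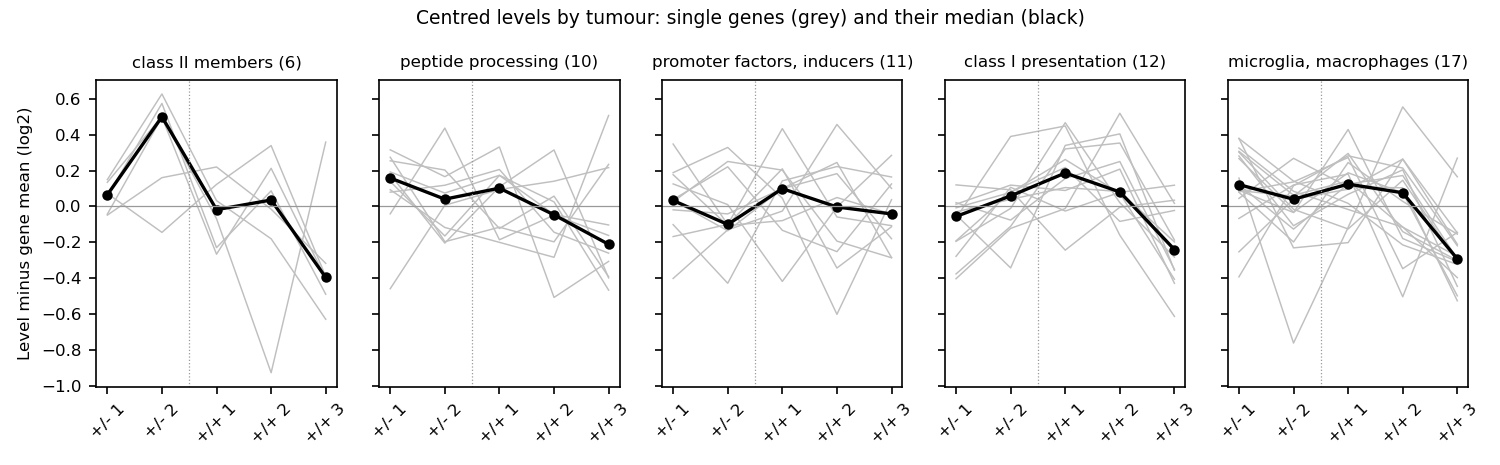
Log2 level minus the gene's own mean over 5 tumours, for the tested genes of 5 lists (grey lines, number in brackets) with the median per tumour in black, MyoD+/- tumours left of the dotted line. MyoD+/+ tumour 3 has the lowest median for class II, peptide processing, class I and microglia, and MyoD+/- tumour 2 stands highest for class II (0.50).

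Markers of the cells known to carry class II were set beside these values. Of 22 microglia and macrophage markers, 17 were tested, 12 with a positive and 5 with a negative difference (median 0.12). Their summed level was 9833 and 8284 in MyoD+/- tumours, against 8671, 8180 and 6696 in MyoD+/+ tumours (linear scale). The median level minus each gene's mean was 0.12 and 0.040 in MyoD+/- tumours, against 0.12, 0.076 and -0.29 in MyoD+/+ tumours. MyoD+/+ tumour 3 was thus lowest for these markers and for class II alike. MyoD+/- tumour 2, highest for class II, lay below MyoD+/- tumour 1 and MyoD+/+ tumour 1 in the summed marker level. That sum gives most weight to the brightest markers, Lyz2 and Laptm5. By the centred median, MyoD+/- tumour 2 lay below MyoD+/+ tumour 2 as well (0.040 against 0.076). The part of these cells in the class II values was not tested.

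Among single markers, the lysosomal Laptm5 stood at 11.07 and 10.83 in MyoD+/- tumours, against 10.71, 10.47 and 10.37 in MyoD+/+ tumours (0.43 ± 0.19, limma adjusted p = 0.945). Lysozyme (Lyz2) differed by 0.34 ± 0.18, and the microglial surface protein Tmem119 by -0.50 ± 0.32. The leukocyte markers Itgam and Ptprc were detected on 0 arrays.

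Of 10 dendritic cell markers, Zbtb46 (0.21 ± 0.33) and Cd83 (0.14 ± 0.24) were tested, and the other 8 were detected on 0 arrays. These were Itgax, Flt3, Cd209a, Xcr1, Clec9a, Batf3, Ccr7 and Siglech. The summed level of the tested pair was 189 and 213 in MyoD+/- tumours, against 201, 208 and 144 in MyoD+/+ tumours. Of 8 B cell markers, 5 had a named probe and none passed the filter. Cd79b, Ms4a1, Pax5 and Blk were detected on 0 arrays. Of 10 T cell markers, Cd8b1 (-0.21 ± 0.16) and Il7r (0.12 ± 0.23) were tested, with a summed level of 751 and 721 in MyoD+/- tumours against 819, 912 and 795 in MyoD+/+ tumours. That sum is almost all Cd8b1, which stood between 9.38 and 9.75 (log2), against 5.16 to 5.78 for Il7r. It is therefore not read as a level of T cells. Cd3e, Cd3d, Cd3g, Cd4, Cd8a and Cd2 were detected on 0 arrays. The Y-linked Eif2s3y stood at 4.42 and 7.85 in MyoD+/- tumours, against 4.51, 8.13 and 7.75 in MyoD+/+ tumours, so the tumours of highest and lowest class II level (MyoD+/- 2 and MyoD+/+ 3) both had high Eif2s3y and low Xist.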

How the data were processed

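The authors deposited a probe signal intensity, not normalized per the file headers, and a detection p-value for each probe and array. The authors' deposited processed values were on a log2 scale. They ranked the probes as the signals did (lowest rank correlation 1), and their sorted values lay within 0.0036 of the log2 of the mean sorted signals, which is quantile normalization without background correction. Per the labels' protocols, cRNA was labelled with biotin. Scanner and software are not given in the sources used here.

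Background correction and quantile normalization used the neqc function of limma 3.58.1 under R 4.3.3, with negative controls inferred from detection p-values and 16 added before log2 was taken. Levels are on this scale, where the offset makes differences of dim probes smaller. Gene names are those of the platform annotation, updated by Entrez identifier from RefSeq (GRCm38.p6). Of 45281 probes, 34885 had 1 symbol, 18 several and 10378 none. Symbols changed for 0 probes. A detection p under 0.05 was required on 2 or more arrays, which kept 18675 probes, and a gene's main probe was that of highest mean level (10474 genes). The genotype test was that of limma (two-sided, lmFit with eBayes, genotype alone in the model), with Benjamini-Hochberg adjustment over all genes, and again over all kept probes. The fit was run on simulated data with log2 changes of 1 and 2. These are larger than the class II differences given here, so the run does not show the power to call those. Only 2 and 3 arrays per genotype limit the precision. Groups of 2 and 3 were not screened for outlying samples.

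Named genes were all members and, of each other list, the 3 of smallest p and the 2 of highest level, with markers detected on no array by name, the 5 genes nearest to Cd74 and to H2-Ab1, Myod1, Xist and Eif2s3y. By the same rule the Y-linked Kdm5d is named, which was above background in 2 of 3 MyoD+/+ tumours and in 0 MyoD+/- tumours. It passed the filter only through the group where it is higher, so its difference is not a finding. In MyoD+/- tumour 2 it stood at 5.14, just under the lowest detected level of that array (5.175). Members and lists were chosen with earlier results of these data known, so the differences of H2-Ab1 and Cd74 are no independent support. Genes of the tissue check were listed after the data were seen. Alternatives were other normalizations, offsets, filters and probe rules, a mean-variance trend, array weights, leaving out each tumour, and a block for the title letters.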

Additional observations from a re-analysis of the deposited data

How the results depend on the processing

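No class II gene passed an adjusted p of 0.05 under any of the 15 alternatives (lowest limma adjusted p 0.588). The differences of Cd74, H2-Aa, H2-Ab1 and H2-Eb1 were positive under all 15, with ranges of 0.27 to 0.79, 0.17 to 0.82, 0.37 to 0.89 and 0.11 to 0.65. These 15 are not separate checks. The filters and the trend fit gave the main differences again, as the probe mean did for the single-probe H2-Aa and H2-Eb1. The title-letter block gave the same differences as leaving out MyoD+/+ tumour 1. The authors' values nearly repeated those without background correction. The median over the 6 genes was 0.18 both without background correction and on the authors' processed values, where standard errors were smaller too. It ranged from 0.19 to 0.68 when a tumour was left out. With median scaling, which moved the median of all genes by 0.14, it was 0.38 relative to that shift. The groups did not overlap, with MyoD+/- higher, in 3 of the 6 class II genes both with median scaling, against 22.1% of all genes, and with the mean of a gene's probes, against 10.5%. With the probe mean the 3 include H2-DMa, of which neither probe separated the groups on its own. Over all genes, 0 passed, except 2 (Gdpd3 and Mbp) with robust estimation on a mean-variance trend and 0 to 1 when a tumour was left out. The count at an unadjusted p under 0.05 in limma was 551, and 529 when MyoD+/+ tumour 1 was left out. It was 879 with title letters as a block, which also removes MyoD+/+ tumour 1 from the difference. That fit compares the genotypes within the letters V and P, which each occur in both, and what the letters mark is not given in the labels. It put H2-Ab1 at 0.79 (limma unadjusted p = 0.0237, adjusted p = 0.588).

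Signs turned in 5 values of members, against 89 that kept the sign, and in 26 values of other named genes, against 562. The kept counts include settings that gave the main difference again. With a tumour left out, H2-DMa ranged from -0.046 to 0.22 and H2-DMb1 from -0.27 to 0.098, and H2-DMb1 was 0.028 with median scaling. The other ranges with a tumour left out were -0.083 to 0.24 (B2m), -0.19 to 0.21 (Cd274), -0.031 to 0.32 (Cd83), -0.028 to 0.16 (Cd86), -2.38 to 1.05 (Eif2s3y), -0.19 to 0.25 (H2-Eb2), -0.33 to 0.21 (Icam1), -0.098 to 0.35 (Il7r), -0.083 to 0.20 (Nfyb), -0.090 to 0.062 (Psme1), -1.95 to 4.48 (Xist) and -0.098 to 0.50 (Zbtb46). Turned values elsewhere were -0.032 (Cd86) and -0.055 (Psme1) with the mean of a gene's probes, 0.0066 (Eif2s3y) and -0.014 (Psme1) with array weights, 0.057 (Icam1) with median scaling, and -0.073 (H2-Eb2) and -0.013 (Il7r) with title letters as a block. The cause was not tested.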
